A study of Homo sapiens with 18 samples.

Results

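The RNA sequencing of MV4-11 cells after 24 h of IACS against DMSO comprised 6 of the 18 libraries of the series. MV4-11 is a human acute myeloid leukemia (AML) line with a KMT2A-AFF1 fusion, a *KMT2A* rearrangement (*KMT2A*-r), and an internal tandem duplication of *FLT3*. IACS (IACS-010759) is a small molecule that inhibits complex I (CI) of the electron transport chain. The members are the 3 libraries of cells given 50 nM IACS for 24 h and the 3 libraries of cells given DMSO, the vehicle. The replicates of this 1 cell line are numbered in the labels and called independent in the study's methods, with no more said of their cultures. Both groups carry the same fusion and duplication, and the time at which the DMSO cells were collected is not stated in the sources used here. Genes were tested where their mean over these 6 libraries was at least 1 TPM (a level per transcript length, scaled to the same total in each library), which left 13503 of the 45372 symbols in the table. The 3 MV4-11 libraries from 8 h of IACS and the 9 libraries of THP1, another *KMT2A*-r AML line, served for comparison.

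CI passes electrons from NADH into the respiratory chain, and its inhibition slows respiration, NADH oxidation and aspartate synthesis. Mitochondrial stress of this kind is relayed by OMA1 and DELE1 to HRI (*EIF2AK1*), a kinase of the translation factor eIF2α. Phosphorylated eIF2α lowers general translation and favors translation of the transcription factor ATF4, whose targets import and make amino acids. This is the integrated stress response (ISR), which PERK, GCN2 and PKR reach from other stresses.

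Myelomonocytic markers of the line were expressed on average over the 6 libraries: 13 of 13 such genes, among them *CD33*, *SPI1*, *HOXA9* and *MEIS1*, passed the level filter. Of 20 markers of other cell types 3 passed it (*KRT18*, *PECAM1* and *ITGA2B*), and the other 17 had a mean under 1 TPM. One library stood apart. IACS 24 h replicate 3 lay at 30.2 on the first principal component of the 9 MV4-11 libraries, where the other 8 lay between -18.5 and 12.4, and its 4 most abundant small RNAs held 37.6% of the TPM against 43.1% and 43.5% in the other 24 h libraries. It lay with those libraries on the second component (-12.5 against -11.5 and -12), where the DMSO libraries lay between 12.8 and 15.9. The next highest on the first component were also replicates numbered 3 (12.4 for DMSO and 11.5 for IACS 8 h), and IACS 8 h replicate 3 had the lowest share of these small RNAs among the MV4-11 libraries (34.2%). Values without IACS 24 h replicate 3 are given beside the results where they changed a call, a sign or a size by much. DMSO replicate 3 stayed in those fits, so a shift that replicates 3 share can add to or take from the change they give. Steps in the low values put the depth at about 22900000 to 28500000 reads or read pairs a library, so that counting error limits mainly short and rare transcripts.

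After 24 h of IACS, 59 genes were called higher and 26 lower than with DMSO. The genes called higher had a median of 3.89 TPM with DMSO and those called lower a median of 33.2 TPM, against 12.7 TPM over all genes tested. A call needed a Benjamini-Hochberg adjusted p under 0.05 in limma and a log2 fold change beyond 0.585 (1.5-fold) on log2(TPM + 1) after rescaling the libraries, and 0.437% of the genes passed upward and 0.193% downward. Without the fold threshold 219 genes were higher (1.62%) and 214 lower (1.58%) at the same adjusted p. All 3 IACS libraries lay above all 3 DMSO libraries in 12.2% of the genes and below them in 12.7%. The groups did not overlap in any of the 85 called genes. Changes were small: the median log2 fold change was 0.71 among the genes called higher and -0.75 among those called lower.

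The number of calls rested on single libraries. Without IACS 24 h replicate 3, 169 genes were called higher and 173 lower, among them 49 of the 59 and all 26 of the 26. That setting put 7.11% of the genes tested in both fits higher and 11.1% lower at an adjusted p under 0.05 without the fold threshold, and 1.29% of them were called lower, the shares against which counts without that replicate are to be read. Without DMSO replicate 1, DMSO replicate 2, IACS 24 h replicate 1 or IACS 24 h replicate 2, 0 genes were called in either direction, although every called gene that stayed above the level filter kept the direction of its change. Without DMSO replicate 3 the counts were 40 and 9, and without IACS 8 h replicate 2, which enters the estimate of the spread, 26 and 15. Without rescaling, 10 genes were called higher and 2 lower. The smallest adjusted p was 0.0145, so that all calls lay within a narrow range of that threshold. Because the samples are bulk RNA, fewer cells with a transcript and less of it per cell cannot be told apart.

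**Figure D1:**
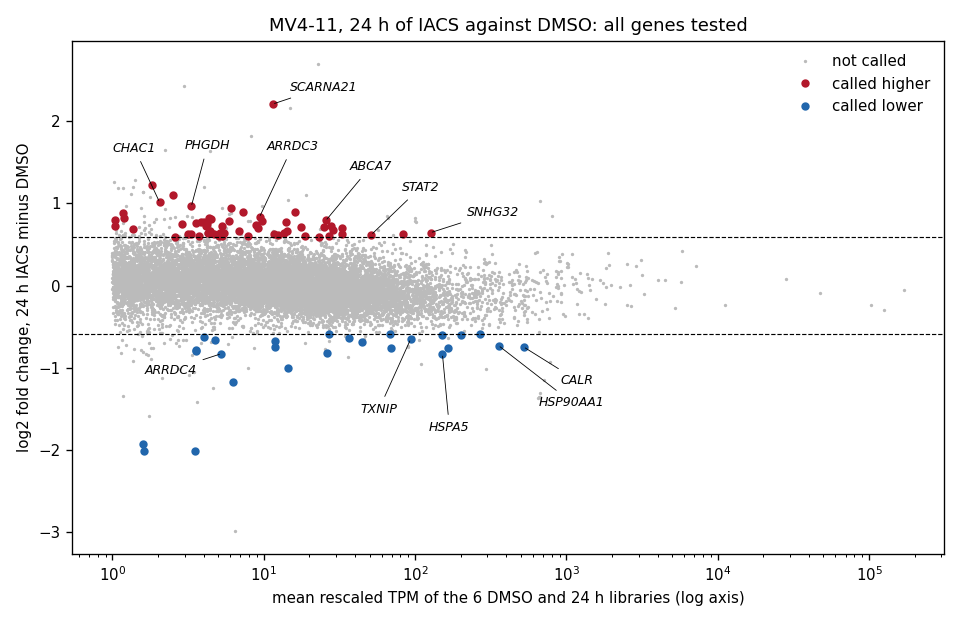
Log2 fold change of each of the 13503 genes tested (24 h IACS minus DMSO, MV4-11, on log2(TPM + 1)) against its mean rescaled TPM on a log axis, with dashed lines at the fold threshold. The 59 genes called higher (red) lie mostly at low levels, and the genes called lower (blue) include the abundant *CALR*, *HSP90AA1* and *HSPA5*.

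Few genes of the ISR were called after 24 h, although most of the core list lay above 0. Of 15 tested members of a list of the ATF4 and CHOP core response, 1 was called higher (0.437% of all genes) and 0 lower. Without the fold threshold 4 were higher at an adjusted p under 0.05 (1.62% of all genes). A log2 fold change above 0 was found for 13 of the 15 (49.9% of all genes). All 3 IACS libraries lay above all 3 DMSO libraries for 8 (12.2% of all genes). The median log2 fold change was 0.24 (0.29 without IACS 24 h replicate 3). The called member was *CHAC1* (chromosome 15, 40952962 to 40956512, GRCh38, GENCODE 44, from which the positions of other genes are also taken), which encodes an enzyme that degrades glutathione. Its level was 0.937, 1.13 and 0.982 TPM in the 3 DMSO libraries and 2.73, 3.15 and 3.35 TPM in the 3 IACS libraries, a log2 fold change of 1.01 ± 0.12 (SE, n = 3; limma adjusted p = 0.0145). The lowest IACS library thus held more than the highest DMSO library by a wide margin, although the gene rested on only 20 to 74 reads a library.

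*ATF4* itself had 179.7, 194 and 182 TPM with DMSO and 248, 231 and 258 TPM after 24 h (log2 fold change 0.41 ± 0.07, limma adjusted p = 0.0291), a separation without overlap that stayed under the fold threshold. *VEGFA*, which encodes an angiogenic factor, differed by 0.47 ± 0.08 (limma adjusted p = 0.0232) and *JDP2*, a bZIP transcription factor, by 0.53 ± 0.11 (limma adjusted p = 0.0398). *DDIT3*, which encodes CHOP, had 14.8, 15.3 and 13.8 TPM with DMSO and 17.2, 20.1 and 25.3 TPM with IACS, and did not pass (0.47 ± 0.14, limma adjusted p = 0.108). *TRIB3*, a pseudokinase that restrains ATF4 (0.15 ± 0.17, limma adjusted p = 0.695), and *SESN2*, an inhibitor of mTORC1 under amino acid loss (0.23 ± 0.10, limma adjusted p = 0.225), did not pass either. *HERPUD1*, a gene of endoplasmic reticulum (ER) protein degradation, was the lowest member (-0.17 ± 0.16, limma adjusted p = 0.597).

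The relay upstream of ATF4 differed in 1 transcript. *DELE1* had 25.4, 25.3 and 28.4 TPM with DMSO and 33.3, 31.7 and 34.3 TPM with IACS (log2 fold change 0.32 ± 0.06, limma adjusted p = 0.0371), so that each IACS library was above each DMSO library, short of the fold threshold. *OMA1*, the protease that cleaves DELE1, had a value of 0.13 ± 0.09 (limma adjusted p = 0.451). The log2 fold changes of the eIF2α kinases were 0.03 ± 0.06 for *EIF2AK1* (HRI), -0.09 ± 0.10 for *EIF2AK2* (PKR), 0.05 ± 0.07 for *EIF2AK3* (PERK) and -0.03 ± 0.06 for *EIF2AK4* (GCN2), with limma adjusted p between 0.682 and 0.816. *EIF2S1*, which encodes eIF2α, had -0.36 ± 0.09 (limma adjusted p = 0.0556).

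**Figure D2:**
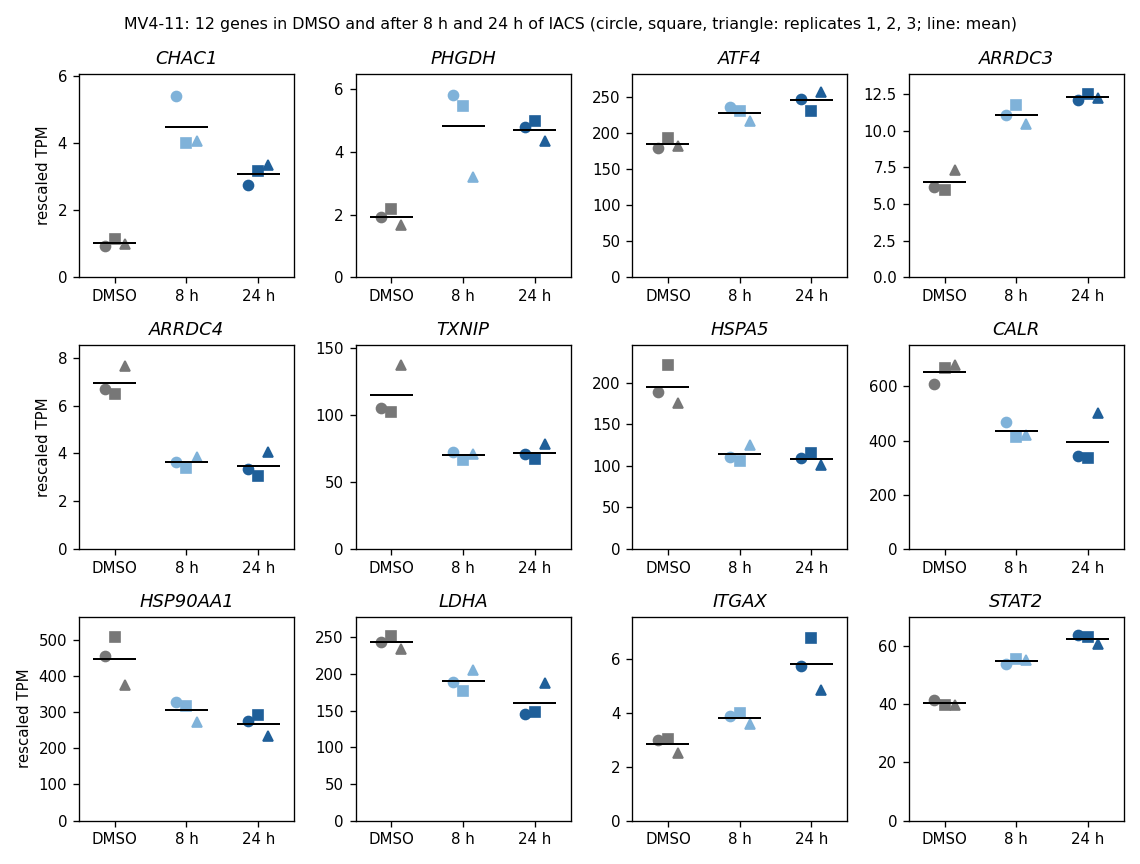
Rescaled TPM of 12 genes in the 9 MV4-11 libraries (DMSO, 8 h and 24 h of IACS, 3 libraries each), with the mean as a line and linear axes from 0. *CHAC1*, *PHGDH*, *ATF4*, *ARRDC3*, *ITGAX* and *STAT2* lie higher in each IACS 24 h library than in each DMSO library, and the other 6 genes lie lower.

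Among amino acid genes the enzyme of the first step of serine synthesis rose. *PHGDH*, the dehydrogenase that commits a glycolytic intermediate to serine (chromosome 1, 119648411 to 119744218), had 1.93, 2.18 and 1.68 TPM with DMSO and 4.79, 4.99 and 4.36 TPM with IACS (log2 fold change 0.97 ± 0.17, limma adjusted p = 0.0291). It was the single called gene of 16 tested in the serine and one-carbon list, whose median was -0.08. *GCSH* of the glycine cleavage system (-0.48 ± 0.08, limma adjusted p = 0.0219), *MTHFD1* (-0.35, limma adjusted p = 0.0418) and *MTHFD1L* (-0.25, limma adjusted p = 0.0423) of the folate cycle were lower without reaching the fold threshold. *PSAT1*, the second enzyme of serine synthesis, stood at 45.2, 47.8 and 44.4 TPM with DMSO and 43.5, 42.5 and 47.9 TPM with IACS (log2 fold change -0.04 ± 0.13), so that its groups overlapped. It was singled out after its values were seen.

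Asparagine synthetase (*ASNS*), a classical ATF4 target, had 5.03, 6.16 and 4.77 TPM with DMSO and 9.03, 7.33 and 7.21 TPM with IACS (log2 fold change 0.49 ± 0.14, limma adjusted p = 0.0977). *PCK2*, the mitochondrial phosphoenolpyruvate carboxykinase, was at 0.55 ± 0.19 (limma adjusted p = 0.145), and *ALDH18A1* of proline synthesis at -0.43 ± 0.13 (limma adjusted p = 0.113). In the list of asparagine, aspartate, proline and glutamate enzymes 0 of 15 were called, and the median was -0.08. Without IACS 24 h replicate 3 the median was -0.14 and 2 were called lower, *ALDH18A1* (-0.60) and *PYCR3*, another enzyme of proline synthesis. 0 of 15 amino acid transporters were called, and their median was -0.04 (-0.08 without that replicate). The cystine transporter *SLC7A11* reached 5.38, 4.83 and 1.97 TPM in the 3 IACS libraries against 3.36, 3.07 and 1.89 TPM with DMSO (0.37 ± 0.31, limma adjusted p = 0.551). IACS 24 h replicate 3 lay within the DMSO range, and without it the value was 0.71, still not called. Replicate 3 was also the lowest library with DMSO and at 8 h (3.54 against 6.27 and 6.25 TPM). DMSO replicate 3 stayed in the fit that gave 0.71, so a shift shared by replicates 3 can enter that value. Of 20 cytosolic tRNA synthetases, *CARS* was higher (0.38 ± 0.08, limma adjusted p = 0.0383) and *FARSB* lower (-0.30, limma adjusted p = 0.0419) at an adjusted p under 0.05, both short of the fold threshold, and the median was -0.14 (-0.21 without IACS 24 h replicate 3).

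Alpha-arrestins, adaptors that direct membrane transporters and receptors to degradation, moved in opposite directions. *TXNIP* and *ARRDC4* also restrain glucose uptake and are targets of the glucose sensor MondoA. Of 8 tested genes of the list, 1 was called higher and 2 lower. *ARRDC3* (chromosome 5, 91368631 to 91383317) had 6.17, 5.94 and 7.31 TPM with DMSO and 12.1, 12.5 and 12.2 TPM with IACS, and rose by 0.83 ± 0.08 (limma adjusted p = 0.0145). Its exons overlap exons of *ARRDC3-AS1* on the opposite strand, and the library kit does not keep the strand, so antisense reads can enter these values. *ARRDC4* (chromosome 15, 97960703 to 97973833) fell from 6.67, 6.502 and 7.67 TPM to 3.33, 3.06 and 4.05 TPM (log2 fold change -0.83 ± 0.10, limma adjusted p = 0.0145). *TXNIP* (chromosome 1, 145992435 to 145996579) fell from 105, 102 and 137 TPM to 70.6, 67.1 and 77.9 TPM (log2 fold change -0.66 ± 0.11, limma adjusted p = 0.0274). None of the 3 genes had overlapping groups, DMSO replicate 3 was the highest DMSO library of each, and all 3 stayed called without IACS 24 h replicate 3. *MLXIP*, which encodes MondoA, was at 0.18 ± 0.13 (limma adjusted p = 0.482).

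The promoter of *ARRDC4* is shown because it holds an E-box, the core of the element that MondoA binds. The sequence runs 5′ to 3′ from 250 to 41 bases before the RefSeq start (GRCh38.p14, chr15:97960453-97960662, plus strand), with CACGTG in capitals.
ARRDC4: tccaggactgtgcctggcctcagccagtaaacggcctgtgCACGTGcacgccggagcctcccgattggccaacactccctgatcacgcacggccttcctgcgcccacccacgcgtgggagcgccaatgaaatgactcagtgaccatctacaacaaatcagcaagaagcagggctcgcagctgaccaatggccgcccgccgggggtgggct
The same letters were not in the windows of *TXNIP* and *ARRDC3*, which extend from 250 bases before to 50 after the start. Only exact CACGTG was searched, so a MondoA element with other letters, or one outside the window, would have been missed.

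Central chaperones of the ER fell. Of 23 tested members of the list of ER chaperones, folding and degradation, 4 were called lower (0.193% of all genes) and 0 higher. The median log2 fold change was -0.29 (-0.32 without IACS 24 h replicate 3) against -0.00024 over all genes. All 3 IACS libraries lay below all 3 DMSO libraries for 15 of the 23 (12.7% of all genes) and above them for 1 (12.2% of all genes). Without IACS 24 h replicate 3, 10 of the 23 were called lower (1.29% of all genes). *HSPA5*, which encodes BiP, the main chaperone of the ER lumen (chromosome 9, 125234853 to 125241382), had 189, 221 and 175 TPM with DMSO and 109, 115 and 100.3 TPM with IACS (log2 fold change -0.84 ± 0.11, limma adjusted p = 0.0145). *CALR*, the calcium-binding lectin chaperone calreticulin (chromosome 19, 12938578 to 12944489), had 609, 669.7 and 679 TPM with DMSO and 344, 336 and 503 TPM with IACS (log2 fold change -0.75 ± 0.15, limma adjusted p = 0.0367). For *CALR*, replicate 3 was the highest of the IACS libraries and still below each DMSO library.

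*HSP90B1*, the HSP90 of the ER (chromosome 12, 103930107 to 103953931), fell from 323, 328 and 325 TPM to 211, 209 and 224 TPM (log2 fold change -0.60 ± 0.07, limma adjusted p = 0.0145). *PDIA3*, a disulfide isomerase that works with calreticulin, fell from 175, 183 and 183 TPM to 116, 113 and 128 TPM (-0.60 ± 0.08, limma adjusted p = 0.0154). *HYOU1*, a nucleotide exchange factor of BiP, was lower short of the fold threshold (-0.49, limma adjusted p = 0.0498). *SDF2L1*, a BiP-associated protein, had 34.6, 46.6 and 49.9 TPM with DMSO and 21.7, 23.3 and 41.04 TPM with IACS (-0.63 ± 0.23, limma adjusted p = 0.168), and was called lower without replicate 3 (-0.91). *XBP1*, a transcription factor of the unfolded protein response, was at -0.25 ± 0.07 (limma adjusted p = 0.0995), and *SYVN1*, an ER ubiquitin ligase, was the highest member at 0.16 ± 0.09 (limma adjusted p = 0.344). Exons of *HSP90B1*, *PDIA3* and *CALR* overlap exons of genes on the opposite strand, and the library kit does not keep the strand.

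The promoters of *HSPA5* and *CALR* are shown because they hold an exact ER stress element, the sequence through which ATF6 and NF-Y act on ER chaperones. The motif, CCAAT followed by CCACG after 9 bases of any kind, was searched on both strands and was chosen after the called genes were seen. Sequences are RefSeq (GRCh38.p14), 5′ to 3′ on the strand of the gene, from 250 to 41 bases before the start, with matches in capitals (a match on the other strand begins with CGTGG and ends with ATTGG). They are chr9:125241384-125241593 (minus strand) for *HSPA5* and chr19:12938359-12938568 (plus strand) for *CALR*.
HSPA5: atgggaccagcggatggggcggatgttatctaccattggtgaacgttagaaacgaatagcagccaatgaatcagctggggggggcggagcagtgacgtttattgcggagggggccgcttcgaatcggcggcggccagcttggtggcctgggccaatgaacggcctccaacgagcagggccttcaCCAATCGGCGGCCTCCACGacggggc
CALR: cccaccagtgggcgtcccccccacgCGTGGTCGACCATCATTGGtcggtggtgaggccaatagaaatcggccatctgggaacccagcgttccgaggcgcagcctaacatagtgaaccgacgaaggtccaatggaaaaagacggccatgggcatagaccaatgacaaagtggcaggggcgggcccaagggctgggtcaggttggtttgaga
*HSPA5* and *CALR* hold 1 match each in the part shown. The RefSeq window of *HSP90B1*, which also holds the element, lies in part within exons of GENCODE transcripts that start earlier. Over the whole windows, from 250 bases before to 50 after the start, 3 of the 11 genes called lower with a promoter in the table held this element (27.3%; *HSPA5*, *CALR* and *HSP90B1*), as did 6 of 22 on the ER list (27.3%), 0 of 37 called higher (0%) and 14 of 9158 genes tested (0.153%).

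Cytosolic chaperones of the HSP90 and HSP70 systems also held calls. In a list of 23 genes chosen after the values were seen, 2 were called lower (0.193% of all genes) and 0 higher. At an adjusted p under 0.05, 7 were lower (1.58% of all genes), and the median was -0.36 (-0.33 without IACS 24 h replicate 3). Since the choice followed the values, these counts and the median are not independent evidence. *HSP90AA1*, the inducible HSP90 (chromosome 14, 102080742 to 102139699), had 455, 509 and 376 TPM with DMSO and 277, 291 and 234 TPM with IACS (log2 fold change -0.73 ± 0.13, limma adjusted p = 0.0294). *HSPH1*, a nucleotide exchange factor of HSP70, fell from 47.3, 50.5 and 37.3 TPM to 26.3, 26.5 and 32.8 TPM (-0.64 ± 0.13, limma adjusted p = 0.0366). The constitutive HSP70 *HSPA8* (-0.56 ± 0.13, limma adjusted p = 0.0553) did not pass, and neither did the stress-induced HSP70 genes *HSPA1A* (-0.12 ± 0.11, limma adjusted p = 0.604) and *HSPA1B* (-0.14 ± 0.14, limma adjusted p = 0.625), 2 near-identical copies whose reads the counting may have split. The HSP90 co-chaperones *STIP1* (-0.50, limma adjusted p = 0.0202) and *PTGES3* (-0.41, limma adjusted p = 0.0251) were lower under the fold threshold. *HSF1*, the transcription factor of the heat shock response, was at 0.14 ± 0.09 (limma adjusted p = 0.391).

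The lists of chaperonin and proteasome assembly and of ribosome biogenesis, also chosen after the values were seen, held 1 call each. Their counts and medians are likewise not independent evidence. *POMP*, which assembles the proteasome core, fell from 83.5, 83.3 and 80.1 TPM to 54.1, 54.7 and 54.4 TPM (-0.59 ± 0.08, limma adjusted p = 0.0179). In the list of chaperonin and proteasome assembly genes it was the 1 called of 13, with a median of -0.34. Of 30 ribosome biogenesis genes 1 was called lower (0.193% of all genes), and 8 were lower at an adjusted p under 0.05 (1.58% of all genes). A log2 fold change below 0 was found for 29 (6761 of all 13503 genes), and the median was -0.30. Without IACS 24 h replicate 3 the median was -0.40, and 27 were lower at such an adjusted p (11.1% of all genes). The called gene was *PUS7*, a pseudouridine synthase, at 33.5, 31.8 and 33.1 TPM with DMSO and 20.4, 20.4 and 23.7 TPM with IACS (-0.59 ± 0.08, limma adjusted p = 0.0179). *UTP14C*, the retrocopy of the processome gene *UTP14A* (-0.17), was the single member above 0. It had 0.504, 0 and 0 TPM with DMSO and 2.08, 0.737 and 2.86 TPM with IACS (1.26 ± 0.30, limma adjusted p = 0.0553), a near-identical copy whose reads are uncertain. Cytosolic ribosomal proteins had a median of 0.04, which turned to -0.06 without IACS 24 h replicate 3, with 0 of 82 called in either case.

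Nuclear genes of oxidative phosphorylation had log2 fold changes mostly below 0, and none was called with all libraries. Among 37 nuclear CI subunits and assembly factors the median log2 fold change was -0.28 (-0.43 without IACS 24 h replicate 3). Of these 34 lay below 0 (6761 of all 13503 genes), and all IACS libraries lay below all DMSO libraries for 11 (12.7% of all genes). Without IACS 24 h replicate 3, 5 were called lower (1.29% of all genes) and 26 were lower at an adjusted p under 0.05 (11.1% of all genes). *NDUFB6* (-0.49 ± 0.09, limma adjusted p = 0.0331) and *NDUFA5* (-0.36, limma adjusted p = 0.0418) were lower at an adjusted p under 0.05. *NDUFB6* had 27.3, 32.4 and 34.2 TPM with DMSO and 23.3, 19.9 and 22.8 TPM with IACS. For complexes III to V all 37 genes had a log2 fold change below 0, with a median of -0.23 (-0.42 without replicate 3, where 4 were called lower and 27 were lower at an adjusted p under 0.05). With all libraries *ATP5PF* passed the adjusted p alone (-0.43, limma adjusted p = 0.0446) and *CYCS*, cytochrome c, did not (-0.45 ± 0.11, limma adjusted p = 0.0525).

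The 13 mitochondrially encoded genes had a median of 0.0036 (0.03 without IACS 24 h replicate 3), with 0 called. *MT-CO1* had 5609, 5450.5 and 3863 TPM with DMSO and 5853, 6710.1 and 7169 TPM with IACS (0.42 ± 0.20, limma adjusted p = 0.28), and *MT-ND6*, the light-strand CI subunit, 61.9, 23.5 and 44.9 TPM and 28.5, 25.6 and 35.7 TPM (-0.43 ± 0.30, limma adjusted p = 0.461). The library kit does not keep the strand, so *MT-ND6* reads cannot be told from RNA of the other strand there. Mitochondrial ribosomal proteins had a median of -0.22, with 75 of 78 below 0 (6761 of all 13503 genes) and 0 called. Without replicate 3 their median was -0.33. In that fit 5 were called lower (1.29% of all genes) and 45 were lower at an adjusted p under 0.05 (11.1% of all genes). *MRPS28* was the lowest (-0.50 ± 0.09, limma adjusted p = 0.0274). Of 29 pyruvate and TCA cycle genes 0 were called, with a median of -0.16 (-0.31 without replicate 3). Mitochondrial chaperones and proteases had a median of -0.22 over 19 genes, and without replicate 3 2 were called lower. *HSPD1*, the mitochondrial chaperonin, was lower short of the fold threshold (-0.48, limma adjusted p = 0.0309), and its partner *HSPE1* had 119, 117 and 114 TPM with DMSO and 63.7, 66.1 and 102 TPM with IACS (-0.62 ± 0.16, limma adjusted p = 0.0709) and was called lower without replicate 3. Genes averaging 100 TPM or more had a median of -0.11 (-0.19 without IACS 24 h replicate 3) and those between 1 and 5 TPM a median of 0.07 (0.12 without it), so that lists of abundant transcripts are to be read against a background below 0.

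**Figure D3:**
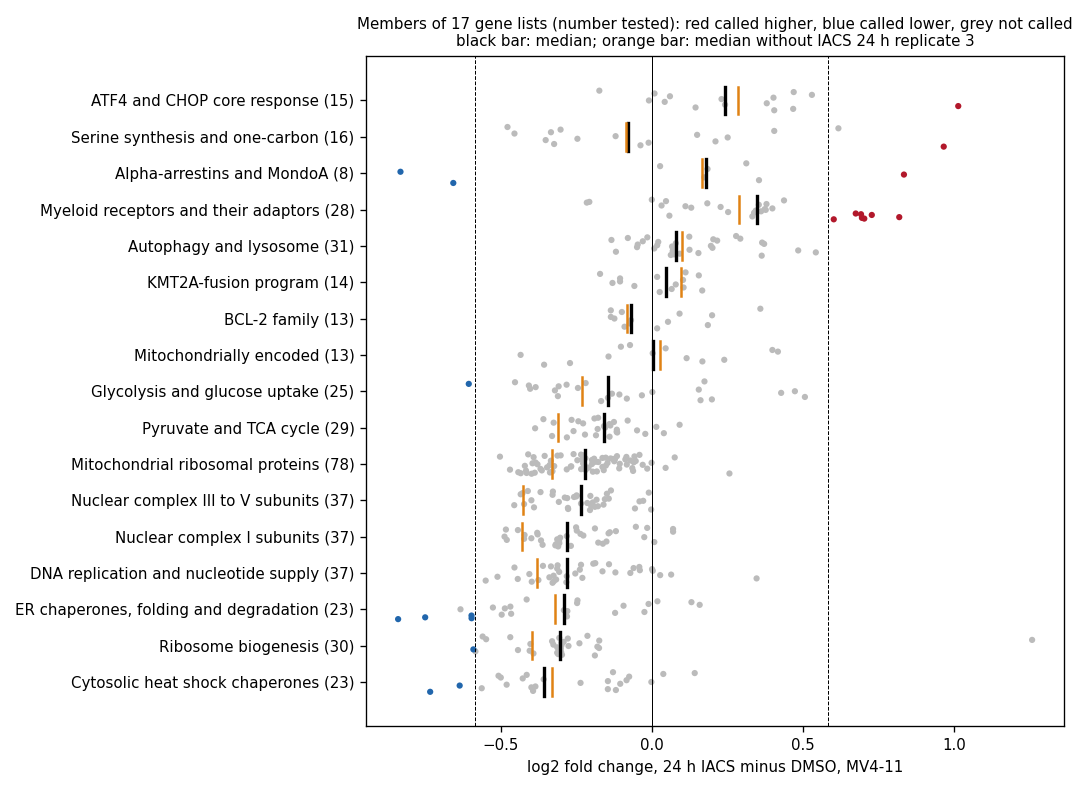
Log2 fold change (24 h IACS minus DMSO, MV4-11) of each tested member of 17 gene lists, with the number tested in parentheses, black bars at the median, orange bars at the median without IACS 24 h replicate 3 and dashed lines at the fold threshold. Medians lie between 0.35 for myeloid receptors and their adaptors and -0.36 for cytosolic heat shock chaperones, both of them lists chosen after the values were seen.

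Of the glycolytic genes 1 fell. *LDHA*, which reduces pyruvate to lactate (chromosome 11, 18394560 to 18408425), had 244, 252 and 234 TPM with DMSO and 146, 148 and 188 TPM with IACS, and fell by 0.60 on the log2 scale (SE 0.11, limma adjusted p = 0.0291). It was the 1 called of 25 genes, whose median was -0.14 (-0.23 without replicate 3, where *TPI1*, triosephosphate isomerase, was called lower as well). *SLC16A1*, the lactate transporter MCT1, was lower (-0.45, limma adjusted p = 0.0354) and the phosphofructokinase regulators *PFKFB2* (0.43, limma adjusted p = 0.0324) and *PFKFB4* (0.47 ± 0.09, limma adjusted p = 0.0291) were higher, each short of the fold threshold. *PFKFB4* had 3.13, 3.39 and 3.52 TPM with DMSO and 5.501, 5.06 and 4.58 TPM with IACS. *HK3*, a hexokinase of myeloid cells, was the highest member at 0.51 ± 0.13 (limma adjusted p = 0.0746).

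Iron, heme and lipid genes held few calls. *TFRC*, the transferrin receptor, was lower in each IACS library (92.03, 88.6 and 89.3 TPM against 133, 130.0 and 121 TPM with DMSO; -0.50 ± 0.06, limma adjusted p = 0.0145), short of the fold threshold. *ALAS1*, the first enzyme of heme synthesis, had 50.8, 53.3 and 63.9 TPM with DMSO and 78.1, 78.04 and 103 TPM with IACS (0.61 ± 0.14) at a limma adjusted p of 0.0501. *ABCB10*, a mitochondrial transporter needed for heme synthesis, was lower (-0.47 ± 0.06, limma adjusted p = 0.0179). *FABP5*, a fatty acid binding protein, fell from 86.3, 94.5 and 80.5 TPM to 46.1, 52.8 and 54.8 TPM (-0.76 ± 0.11, limma adjusted p = 0.0202). *ABCA7*, a lipid exporter (chromosome 19, 1039997 to 1065572), rose from 17.02, 19.6 and 19.04 TPM to 35.1, 34.2 and 29.4 TPM (0.79 ± 0.09, limma adjusted p = 0.0145), the 1 called of 8 genes in the list of LXR targets and lipid efflux. Of 28 cholesterol synthesis and SREBP genes 0 were called, with a median of -0.05 (0.03 without IACS 24 h replicate 3) and *FASN* lowest (-0.43 ± 0.10, limma adjusted p = 0.0507). *SAT1*, which acetylates polyamines, rose from 14.1, 11.9 and 13.7 TPM to 22.8, 22.2 and 21.5 TPM (0.71 ± 0.08, limma adjusted p = 0.0145).

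Genes of DNA replication had values mostly below 0 without a call. Over 37 of them the median was -0.28 (-0.38 without replicate 3). Without that replicate 4 were called lower (1.29% of all genes). With all libraries 32 lay below 0 (6761 of all 13503 genes), and all IACS libraries lay below all DMSO libraries for 14 (12.7% of all genes). *MCM6*, a subunit of the replicative helicase, had 131, 138 and 125 TPM with DMSO and 85.9, 82.8 and 99.98 TPM with IACS (-0.55 ± 0.10, limma adjusted p = 0.0293) and was called lower without replicate 3. *CDT1*, which loads that helicase, was the highest member (0.35 ± 0.09, limma adjusted p = 0.076). Of 31 genes of mitosis and the spindle 0 were called, with a median of -0.18. Replication-dependent histone genes had a median of -0.23 over 64 (-0.45 without replicate 3). Without that replicate 18 of them were called lower (1.29% of all genes). *HIST1H2AB* was called (187, 228 and 209 TPM with DMSO, 119.6, 99.1 and 154 TPM with IACS; -0.76 ± 0.15, limma adjusted p = 0.0365), but H2A genes are near-identical copies and reads may be split among them. *GAL*, the neuropeptide galanin, fell from 14.3, 17.3 and 13.7 TPM to 7.204, 7.799 and 11.1 TPM (-0.75 ± 0.14, limma adjusted p = 0.0351), and *PIGW*, an enzyme of glycosylphosphatidylinositol anchor synthesis, from 12.8, 16.05 and 15.7 TPM to 8.66, 8.14 and 9.87 TPM (-0.68 ± 0.11, limma adjusted p = 0.0224).

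Among the genes called higher were receptors of myeloid cells. A list of 30 myeloid receptors and their adaptors was chosen after the values were seen. Of 28 tested, 7 were called higher (0.437% of all genes) and 0 lower, and the median was 0.35 (0.29 without replicate 3). Because the choice followed the values, this count and median are not evidence about myeloid receptors as a class. *ITGAX*, the integrin CD11c of monocytes and dendritic cells (chromosome 16, 31355134 to 31382999), had 2.99, 3.02 and 2.52 TPM with DMSO and 5.76, 6.801 and 4.87 TPM with IACS (log2 fold change 0.82 ± 0.11, limma adjusted p = 0.0186). *OSCAR*, a collagen receptor of osteoclasts and monocytes, rose from 20.7, 21.00 and 22.1 TPM to 32.1, 33.7 and 32.7 TPM (0.60 ± 0.07, limma adjusted p = 0.0145). The lysophosphatidic acid receptor *LPAR2* rose from 19.9, 22.3 and 19.3 TPM to 37.8, 38.8 and 28.03 TPM (0.73 ± 0.14, limma adjusted p = 0.0354). The other calls were *CD72*, *MILR1*, the ATP-gated channel *P2RX7* and *CYTH4*, an exchange factor for ARF GTPases, with log2 fold changes of 0.68 to 0.70. *LILRA2* was higher under the fold threshold (0.37, limma adjusted p = 0.0202), and the kinase *SYK* was at -0.21 ± 0.08 (limma adjusted p = 0.164).

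Granule and effector genes had values on both sides of 0. In the list of monocyte and granulocyte surface and effector genes 1 of 26 was called (*ITGAX*), the median was 0.15 (0.04 without replicate 3), and *CSF3R*, the granulocyte colony-stimulating factor receptor, was higher short of the fold threshold (0.51, limma adjusted p = 0.0274). *S100A9*, a calcium-binding alarmin, had 97.5, 104 and 134 TPM with DMSO and 59.3, 54.8 and 86.4 TPM with IACS (-0.75 ± 0.21, limma adjusted p = 0.0876). It was called lower without IACS 24 h replicate 3. Replicate 3 was the highest library of both groups, and DMSO replicate 3 stayed in that fit. Lysozyme (*LYZ*) ranged over 5121, 4806 and 6847 TPM with DMSO and 3743, 3674 and 6908 TPM with IACS, with overlap (-0.28 ± 0.28, limma adjusted p = 0.632). Of 15 myeloid transcription factors 0 were called, with a median of 0.0095 that turned to -0.04 without replicate 3. *CEBPB* was the highest (0.38 ± 0.13, limma adjusted p = 0.151).

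*STAT2*, a transcription factor of type I interferon signaling (chromosome 12, 56341597 to 56360203), had 41.6, 39.7 and 39.7 TPM with DMSO and 63.7, 63.2 and 60.8 TPM with IACS, and rose by 0.62 ± 0.05 (limma adjusted p = 0.0145). It was the 1 called of 15 interferon-stimulated genes, whose median was 0.05 (0.07 without replicate 3), and *ISG15* was at -0.24 ± 0.20 (limma adjusted p = 0.545). *TSC22D3*, the glucocorticoid-induced leucine zipper, rose from 3.47, 3.73 and 3.997 TPM to 7.03, 7.800 and 5.77 TPM (0.73 ± 0.10, limma adjusted p = 0.0202). In the FOXO and growth factor withdrawal list it stood against *TXNIP*, with 1 called higher and 1 lower of 18. *GIPR*, an incretin receptor, rose from 10.7, 10.8 and 11.1 TPM to 21.8, 23.2 and 18.6 TPM (0.90 ± 0.17, limma adjusted p = 0.0321). *NOXA1*, an activator of NADPH oxidase, rose from 4.297, 4.72 and 5.45 TPM to 10.3, 9.18 and 9.795 TPM (0.89 ± 0.11, limma adjusted p = 0.0145), and *RENBP*, an epimerase of amino sugars, from 3.71, 3.87 and 4.67 TPM to 7.88, 7.62 and 7.62 TPM (0.78 ± 0.10, limma adjusted p = 0.0145). Of 31 autophagy and lysosome genes 0 were called, 24 lay above 0 (49.9% of all genes) and the median was 0.08. Without replicate 3, 2 were called higher (1.26% of all genes). *CTSS*, a lysosomal protease, was higher short of the fold threshold (0.37, limma adjusted p = 0.0418). *GABARAPL1*, which acts in autophagosome formation, was the highest (0.54 ± 0.15, limma adjusted p = 0.0825) and was called without replicate 3. *CLDN7*, a tight junction protein, *NMUR1*, a neuromedin U receptor, and *YPEL3* were further calls, with log2 fold changes of 0.77 to 0.81.

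The BCL-2 family, the regulators of mitochondrial apoptosis that MCL-1 inhibitors address, held no call among 13 tested genes, and its median was -0.07. The anti-apoptotic *MCL1* had 83.03, 86.7 and 85.2 TPM with DMSO and 80.6, 80.3 and 81.5 TPM with IACS, without overlap but by a small amount (-0.07 ± 0.05, limma adjusted p = 0.496). *BCL2* had 74.6, 72.2 and 59.97 TPM and 78.2, 75.8 and 56.7 TPM (0.02 ± 0.14, limma adjusted p = 0.962), and *BCL2L1* was at -0.09 ± 0.08. The effectors *BAX* and *BAK1* were at 0.05 ± 0.08 and -0.07 ± 0.13. The BH3-only genes ranged from -0.14 ± 0.07 for *BCL2L11* (BIM) and -0.13 ± 0.15 for *BAD*, through -0.10 ± 0.09 for *PMAIP1* (NOXA) and 0.09 ± 0.11 for *BBC3* (PUMA), to 0.36 ± 0.11 for *BMF* (limma adjusted p = 0.1). A list of the *KMT2A*-fusion program, with HOXA genes, *MEIS1* and other genes tied to the fusion such as *MYC*, *CDK6* and *SENP6*, held 0 calls among 14 genes, a median of 0.05 (0.10 without replicate 3) and log2 fold changes between -0.17 and 0.17. Of 22 p53 targets 0 were called, with a median of 0.0061. Of 22 genes of mTORC1 and its stress inhibitors 0 were called, and the median was 0.08 (0.02 without replicate 3). *DDIT4*, which encodes the mTORC1 inhibitor REDD1, was the highest there (0.40 ± 0.10, limma adjusted p = 0.0649).

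Some of the largest values belonged to short noncoding RNAs, whose counts are small and whose copies share sequence. *SCARNA21*, a guide RNA of the Cajal body, had 2.07, 3.199 and 4.23 TPM with DMSO and 14.6, 11.4 and 33.4 TPM with IACS (2.21 ± 0.34, limma adjusted p = 0.0212), from 3 to 50 reads a library. *SNORA21*, an H/ACA small nucleolar RNA (snoRNA), had 5.098, 2.69 and 1.91 TPM in the DMSO libraries, 7 reads at most, and was listed at 0 in the 3 IACS libraries. It was called lower, and no fold is given. *RF00003_1*, a copy of the U1 spliceosomal RNA, had 7.12, 4.39 and 7.25 TPM with DMSO and 0.596, 0.614 and 1.15 TPM with IACS. *SNHG32*, a snoRNA host gene, rose from 89.4, 96.8 and 111 TPM to 156, 147 and 160.5 TPM (0.64 ± 0.11, limma adjusted p = 0.0274). *C9orf139* and *BRWD1-AS2*, an antisense RNA, were also called higher, and *APOL4*, an apolipoprotein L gene, lower. Clone-based or family names alone were carried by 10 of the genes called higher and 8 of those called lower. Among 63 called genes with 1 position in the annotation, 31 had an exon that overlaps an exon of another gene, 27 of them on the opposite strand. *HSP90AA1*, *POMP*, *FABP5* and *NOXA1* are among the latter. As the library kit does not keep the strand, reads of the opposite gene can enter such values.

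The study took 35 transcripts from this RNA sequencing into a CRISPR library of ISR genes. Of 30 tested, 4 were called higher (*CHAC1*, *PHGDH*, *ARRDC3* and *TSC22D3*) and 4 lower (*HSPA5*, *ARRDC4*, *CALR* and *TXNIP*), against 0.437% and 0.193% of all genes. The median was 0.48, and 25 lay above 0 (49.9% of all genes). Because these were chosen on the same libraries, their direction is not independent evidence. *APBB3*, an adaptor of amyloid precursor protein (0.53 ± 0.11, limma adjusted p = 0.0371), and *RAP1GAP2*, a GTPase activator of Rap1 (0.52 ± 0.11, limma adjusted p = 0.0418), were higher short of the fold threshold. *GRB10*, an adaptor of the insulin receptor (0.16 ± 0.15), and the one-carbon enzyme *ALDH1L2* (0.15 ± 0.09) were nearest to 0 among those above it together with *TRIB3*, with limma adjusted p between 0.391 and 0.695.

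Promoter letters were counted as a description. RefSeq promoters (250 bases before to 50 after the start) were found for 37 of the genes called higher, 11 of those called lower and 9158 of those tested. TGATGNAA, the core of the C/EBP-ATF element that ATF4 and CHOP bind, was present on either strand in 3 of 37 called higher (8.11%), 0 of 11 called lower and 1.49% of all. The 3 genes were *CHAC1*, *C1orf54* and *HCG27*. For *CHAC1* the RefSeq window lies within the first exon of a longer GENCODE transcript, which starts earlier, so the annotations place its promoter differently. CACGTG, the E-box, was present in 2 of 37 called higher (5.41%), 5 of 11 called lower (45.5%: *ARRDC4*, *HSP90B1*, *LDHA*, *PIGW* and *PUS7*) and 10.5% of all. TGANTCA, the AP-1 site, was in 8.11%, 18.2% and 4.17%, and GTAAACA, a forkhead site, in 2.7%, 18.2% and 2.27%. A heat shock element, read as GAA, TTC and GAA with 2 bases between neighbors and also chosen after the values were seen, was in 0 of 37, 0 of 11 and 0.295% of these promoters, and in 4 of 21 cytosolic heat shock chaperones (19.0%), among them *HSPA8* and *DNAJA1*.

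Between 8 h and 24 h of IACS, 0 of 13503 genes were called (0%), and the smallest limma adjusted p was 0.627. At an unadjusted p under 0.05 with the same fold, 28 genes were higher and 26 lower at 24 h. The 8 h libraries share their DMSO controls with the 24 h libraries, so levels are given side by side. *HSPA5* had 111, 105 and 126 TPM at 8 h, close to its 24 h values (24 h minus 8 h, -0.07 ± 0.11, SE, log2), and *TXNIP* had 72.3, 66.1 and 70.7 TPM (0.04 ± 0.11). *ARRDC3* had 11.04, 11.7 and 10.5 TPM at 8 h (0.14 ± 0.08). *CHAC1* had 5.39, 3.98 and 4.04 TPM at 8 h, each above each 24 h library (-0.42 ± 0.12, limma adjusted p = 0.695). *PSAT1* had 73.9, 66.01 and 49.5 TPM at 8 h (-0.47 ± 0.13, limma adjusted p = 0.678). *ITGAX* had 3.88, 3.99 and 3.61 TPM at 8 h, each between its DMSO and 24 h levels (0.49 ± 0.11, limma adjusted p = 0.627). *ABCA7* (22.7, 25.7 and 24.6 TPM at 8 h; 0.42 ± 0.09) and *STAT2* (54.00, 55.6 and 55.1 TPM; 0.18 ± 0.05) were also intermediate. None of these differences between times passed the adjustment over all genes.

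In THP1 the effect of 24 h of IACS was that of its IACS libraries against its own DMSO libraries. It and the difference between lines came from a fit of all 18 libraries rescaled together. The MV4-11 values came from the fit of its 9 libraries, so the difference can depart slightly from that of the values given for each line. Of 12575 genes tested in both lines, 1 had an effect that differed between them (0.00795%). That count rested on the libraries and the model: it was 42 without THP1 IACS 24 h replicate 2 and 125 with a replicate block. *ARRDC3* had 33.6, 30.2 and 30.9 TPM in THP1 with DMSO and 30.9, 28.1 and 28.03 TPM with IACS, with overlapping groups. The difference between its MV4-11 and THP1 log2 fold changes was 0.96 ± 0.11 (SE, limma adjusted p = 0.00272 for the interaction). Leaving out any 1 of the 12 DMSO and 24 h libraries gave differences of 0.91 to 1.04 with limma adjusted p of at most 0.0166, and without rescaling the limma adjusted p was 0.175. *TXNIP* had the larger fall in THP1, from 171, 174 and 261 TPM to 44.3, 39.2 and 61.8 TPM (log2 fold change -2.03 against -0.66 in MV4-11), and the difference of 1.39 ± 0.26 did not pass (limma adjusted p = 0.0868).

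*CHAC1* (1.24 in THP1), *PHGDH* (0.89), *HSPA5* (-0.65) and *ARRDC4* (-0.90) had values near those of MV4-11, with interaction limma adjusted p between 0.724 and 0.931. The SEs of these differences were 0.29, 0.23, 0.16 and 0.13, so that differences of that order were not detectable. *PSAT1* was at 0.69 in THP1 against -0.04 in MV4-11 (difference -0.71 ± 0.22, limma adjusted p = 0.211). Values were also higher in THP1 for *ASNS* (1.49, difference -0.99 ± 0.26), *TRIB3* (1.09, -0.94 ± 0.25), *SESN2* (1.00, -0.76 ± 0.22) and *ALDH1L2* (0.93, -0.77 ± 0.15). Their interaction limma adjusted p lay between 0.103 and 0.205. *DDIT3* was at 0.50 in THP1 (difference -0.02 ± 0.25) and *PCK2* at 0.51 (0.05 ± 0.23). *ITGAX* was at 0.42 (difference 0.40 ± 0.19, limma adjusted p = 0.421). Of the 52 genes called higher in MV4-11 that were tested in both lines, 45 had a log2 fold change above 0 in THP1, against 52.2% of all genes, and of 21 called lower 20 were below 0, against 47.8%. *SNORA21* was the exception among those called lower.

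**Figure D4:**
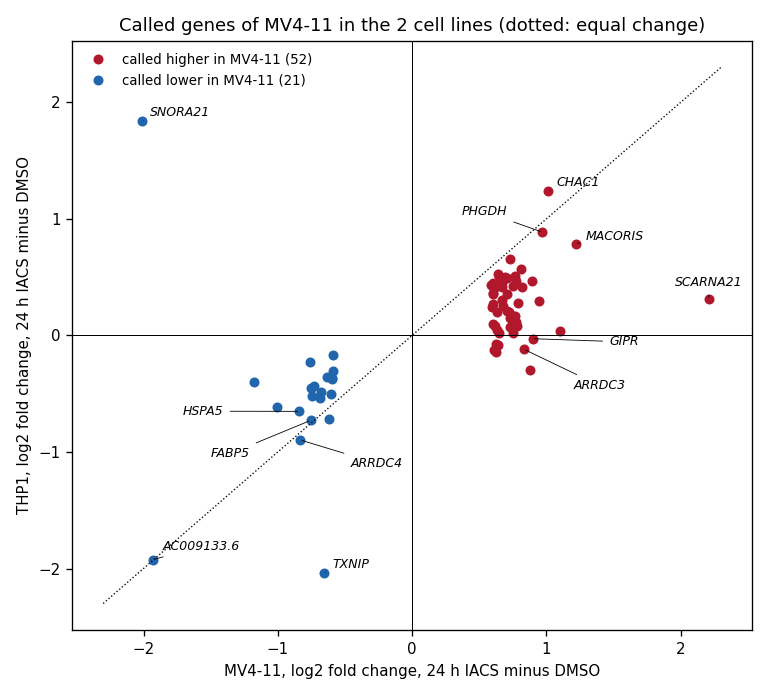
Log2 fold change after 24 h of IACS (on log2(TPM + 1)) in THP1 against MV4-11 for the 73 called genes tested in both lines, with a dotted line of equal change. *ARRDC3* lies at 0.83 in MV4-11 and -0.12 in THP1, *TXNIP* at -0.66 and -2.03, and *SNORA21* is listed at 0 in the 3 MV4-11 IACS libraries, so that its place depends on the pseudocount.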

How the data were processed

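RNA was sequenced from MV4-11 cells after DMSO or after 8 h or 24 h of IACS at 50 nM, and from THP1 cells treated alike, with 3 replicates per group. Per the labels and the study's methods, the authors trimmed paired-end reads, aligned them to GRCh38 with CLC Genomics Workbench 20 and deposited TPM per gene. The annotation release, the use of strand in counting and the culture time of the DMSO cells are not given in the sources used here. Columns of the table not used numbered 0.

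Because TPM are not counts, values were divided by median-of-ratios factors, transformed to log2(TPM + 1) and fitted with limma 3.58.1 in R 4.3.3 (empirical Bayes with a variance trend) over the 9 MV4-11 libraries. Genes needed a mean of 1 TPM over the 6 libraries compared. Genes were called where the log2 fold change exceeded 0.585 in size with an adjusted p (Benjamini-Hochberg) below 0.05. THP1 effects came from a fit of 18 libraries, and differences between cell lines were interaction terms in that fit. Adding 1 before the logarithm understates the change of low genes. P-values measure the spread between these replicates only. The scripts were tested on simulated data.

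Genes were named where they were among the 15 largest rises or falls among calls with at least 5 TPM and no overlap, were called or extreme members of a described list, belonged to the ATF4 relay, the BCL-2 family or the study's ISR library, or were also called between times or lines. Of those, genes with clone-based names are given as a count. Other genes named were chosen after their values were seen. Members and lists were chosen with earlier results of these data known. Promoters came from RefSeq (GRCh38.p14) and positions from GENCODE 44 (GRCh38). Symbols with 1 exon length, needed to read depth from steps in the values, were 28219 of 45372, and 74.9% to 75.9% of low values gave whole reads within 0.02. Alternatives covered the pseudocount, the level filter, scaling, the model, the replicate block and leaving out each library.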

Additional observations from a re-analysis of the deposited data

Results flagged for a closer look

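The effect of 24 h of IACS on *ARRDC3* was 0.96 ± 0.11 (SE, log2) higher in MV4-11 than in THP1 (limma adjusted p = 0.00272 over 12575 genes), and a test of the difference between the lines flagged it. All 3 IACS libraries of MV4-11 lay above the DMSO libraries, whereas the THP1 groups overlapped. Reads of *ARRDC3-AS1* on the opposite strand can enter the values, since the library kit does not keep the strand. Without rescaling the difference was 1.18 with a limma adjusted p of 0.175, and over the other alternatives the adjusted p lay between 0.000826 and 0.0166. The cause was not tested.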

How the results depend on the processing

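Against 59 genes called higher and 26 lower at 24 h, leaving out 1 library gave 0 to 169 higher and 0 to 173 lower. The counts were 34 and 16 without the level filter, 24 and 18 among genes averaging 10 TPM or more, 10 and 2 without rescaling, 307 and 199 with library quality weights, 11 and 4 from the 6 libraries alone, and 120 and 55 at an unadjusted p. Pseudocounts of 0.1 and 0.5, quantile normalization, no variance trend, robust estimation and a Kruskal-Wallis test at an unadjusted p gave 49 to 84 higher and 18 to 29 lower. The Kruskal-Wallis test spanned the DMSO, 8 h and 24 h groups, so a gene can pass it through its 8 h values. Between 24 h and 8 h, 0 genes were called except 54 at an unadjusted p. Between lines, 1 gene was called, 222 at an unadjusted p, and 1 to 42 leaving out 1 library (42 without THP1 IACS 24 h replicate 2). Without rescaling, the median of all genes moved to 0.077. The cause of these changes was not tested.

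Adding a replicate block gave 83 higher and 38 lower calls, 0 between times and 125 between lines. The numbers were not taken to pair the libraries, since deviations of the same-numbered DMSO and 24 h libraries correlated at 0.28, 0.0719 and 0.451, and DMSO replicate 1 correlated best with IACS 24 h replicate 2 (0.358). DMSO replicates 2 and 3 correlated best with the 24 h library of their own number. Deviations from a group mean cancel within the group, so these correlations depend on one another and cannot settle whether the libraries are paired. Both replicates 3 deviated together, with DMSO replicate 3 at -0.3 and -0.405 against IACS 24 h replicates 1 and 2.

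Of 760 values of 39 called named genes under the alternatives, 297 fell short of the thresholds and 0 changed direction. The 42 uncalled named genes passed them 19 times. Of 235 list medians 39 moved by more than the spread between replicates. Signs changed in genes near 0. Leaving out 1 library gave -0.0776 to 0.162 for *BCL2*, -0.0147 to 0.0995 for *BAX*, -0.229 to 0.0288 for *BAK1*, -0.322 to 0.0148 for *BAD*, -0.0255 to 0.202 for *BBC3* and -0.00438 to 0.0871 for *EIF2AK3*. Without rescaling, *MCL1* was at 0.0159, *BAK1* at 0.0184 and *EIF2AK4* at 0.0495. *MCL1* was at 0.0215 after quantile normalization, and *BAX* at -0.019 and *EIF2AK1* at -0.0205 with quality weights.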
